A study of Caenorhabditis elegans with 2 samples.

Results

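The 42 genes described here are the protein-coding genes of *Caenorhabditis elegans* that belong to 5 named subfamilies of ATP-binding cassette (ABC) transporters. They were taken by the start of their gene name (pgp, mrp, haf, abt or wht) from 19985 protein-coding genes in the Ensembl annotation of the WBcel235 assembly. The pgp subfamily has 14 of them, mrp, haf and wht have 8 each, and abt has 4. The question was which of them carry a peak of the transcription factor ELT-2 in their promoter, and how the subfamilies and the gut-expressed members compare. The rule that picks members uses gene names only and no measured value, but the set was proposed with earlier results of these data known.

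ELT-2 was profiled by chromatin immunoprecipitation with sequencing (ChIP-seq) in 2 biological replicates, numbered 1 and 2, of a single group. The animals were hermaphrodites of strain OP56, with the unc-119(ed3) allele on chromosome III and the transgene wgIs56, from which ELT-2 is made with GFP and FLAG at its C-terminus. Whole late embryos were collected 4 hours after egg bleaching, chromatin was sonicated, and the description names an anti-GFP antibody, whereas the antibody field reads elt-2. Both replicates carry the transgene and the unc-119 allele, the deposited description gives 1 transgenic line, the promoter that drives the fusion is not stated there, and control libraries were not analysed here.

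ABC transporters use ATP to carry drugs, metals, lipids, peptides or pigments across membranes. The pgp genes encode P-glycoproteins and the mrp genes encode multidrug resistance-associated proteins, each a full-length transporter, and the abt genes encode proteins of the ABCA class. The haf and wht genes encode shorter proteins that pair to make a working transporter, and the wht proteins resemble the fly White protein. In the intestine of the worm, ELT-2 is the leading GATA factor. That organ takes up nutrients, meets toxins first, and stores material in gut granules, which are lysosome-related organelles. GATA factors bind sites built around the letters GATA, and TGATAA is the core site used for ELT-2.

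Sequences of 101 bases centred on a peak summit are shown for 6 members, read from the WBcel235 assembly in the direction of the gene. The first 4 (mrp-5, wht-1, wht-2 and pgp-1) are members whose summit had TGATAA within 50 bp, and the capitals mark TGATAA or its reverse complement TTATCA. The last 2 (pgp-6 and mrp-3) had no TGATAA there but held AGATAA, and the capitals mark its reverse complement TTATCT. The stretches lie at chrX:14946525-14946625 on the minus strand (mrp-5), chrIII:6088083-6088183 on the minus strand (wht-1), chrIV:11470085-11470185 on the plus strand (wht-2), chrIV:12599299-12599399 on the minus strand (pgp-1), chrX:10877516-10877616 on the minus strand (pgp-6) and chrX:15939950-15940050 on the minus strand (mrp-3). None of them overlaps an annotated exon.
mrp-5: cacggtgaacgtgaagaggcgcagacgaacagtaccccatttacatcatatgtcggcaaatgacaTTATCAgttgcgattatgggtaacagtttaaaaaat
wht-1: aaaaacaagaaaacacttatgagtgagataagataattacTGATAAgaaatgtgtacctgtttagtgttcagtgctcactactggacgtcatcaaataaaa
wht-2: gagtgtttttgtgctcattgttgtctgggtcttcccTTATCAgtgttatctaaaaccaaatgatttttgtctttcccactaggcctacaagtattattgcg
pgp-1: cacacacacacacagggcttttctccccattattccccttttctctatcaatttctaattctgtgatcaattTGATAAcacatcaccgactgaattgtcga
pgp-6: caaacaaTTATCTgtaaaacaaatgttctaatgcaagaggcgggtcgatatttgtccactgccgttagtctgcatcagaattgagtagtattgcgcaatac
mrp-3: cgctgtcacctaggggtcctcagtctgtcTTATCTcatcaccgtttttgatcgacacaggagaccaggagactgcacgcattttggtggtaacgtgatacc
The mrp-5 site starts at base 66 of its stretch, the wht-1 site at base 41, the wht-2 site at base 37 and the pgp-1 site at base 73. The TTATCT of pgp-6 starts at base 8 and that of mrp-3 at base 30, with base 51 of each stretch at the summit. The wht-1 stretch holds a run of GATA words in lower case just before the marked site, and the wht-2 stretch holds a further GATA word just after it.

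A promoter peak was found at 14 of the 42 ABC genes, or 33.3%, beside 13.7% of all protein-coding genes. A gene was given a promoter peak when a summit of the thresholded peak list fell in a window that began 1000 bp upstream of the 5′ end of one of its transcripts and stopped 200 bp downstream. The haf subfamily had the highest share, with 5 of 8 genes (haf-3, haf-4, haf-6, haf-7 and haf-9), and wht followed with 4 of 8 (wht-1, wht-2, wht-3 and wht-7). The mrp subfamily had 2 of 8 (mrp-3 and mrp-5), pgp had 3 of 14 (pgp-1, pgp-2 and pgp-6), and none of the 4 abt genes had one. By the rough rule of 3 divided by the number of genes, which is loose for so few, the abt count allows a share of up to 75.0%. Grouping haf with wht, a grouping made after the values were seen, gave 9 of 16 genes (56.2%), beside 5 of 26 (19.2%) for pgp, mrp and abt together. This contrast rested in part on peaks shared with neighbours. With only peaks that counted for 1 gene, haf had 3, wht 2, pgp 3, mrp 2 and abt 0. The share of all protein-coding genes was lower under that rule too, at 8.05% beside 13.7%. With 1 group of 2 libraries and members proposed with results of these data known, these counts were described and not tested.

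The thresholded list held 4098 peaks whose signal, the authors' deposited value on a scale not given in the sources used here, ran from 67.6 to 1740 with a median of 108. The numbers of reads are not known from peak lists. Over the 14 ABC genes the strongest promoter signal had a median of 135, beside 111 over all 2734 genes with a promoter peak. The list that holds peaks of any strength from the pooled replicates had 30000 entries, and 22 of the 42 members (52.4%) had one of these in the window, beside 42.0% of all genes.

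**Figure D1:**
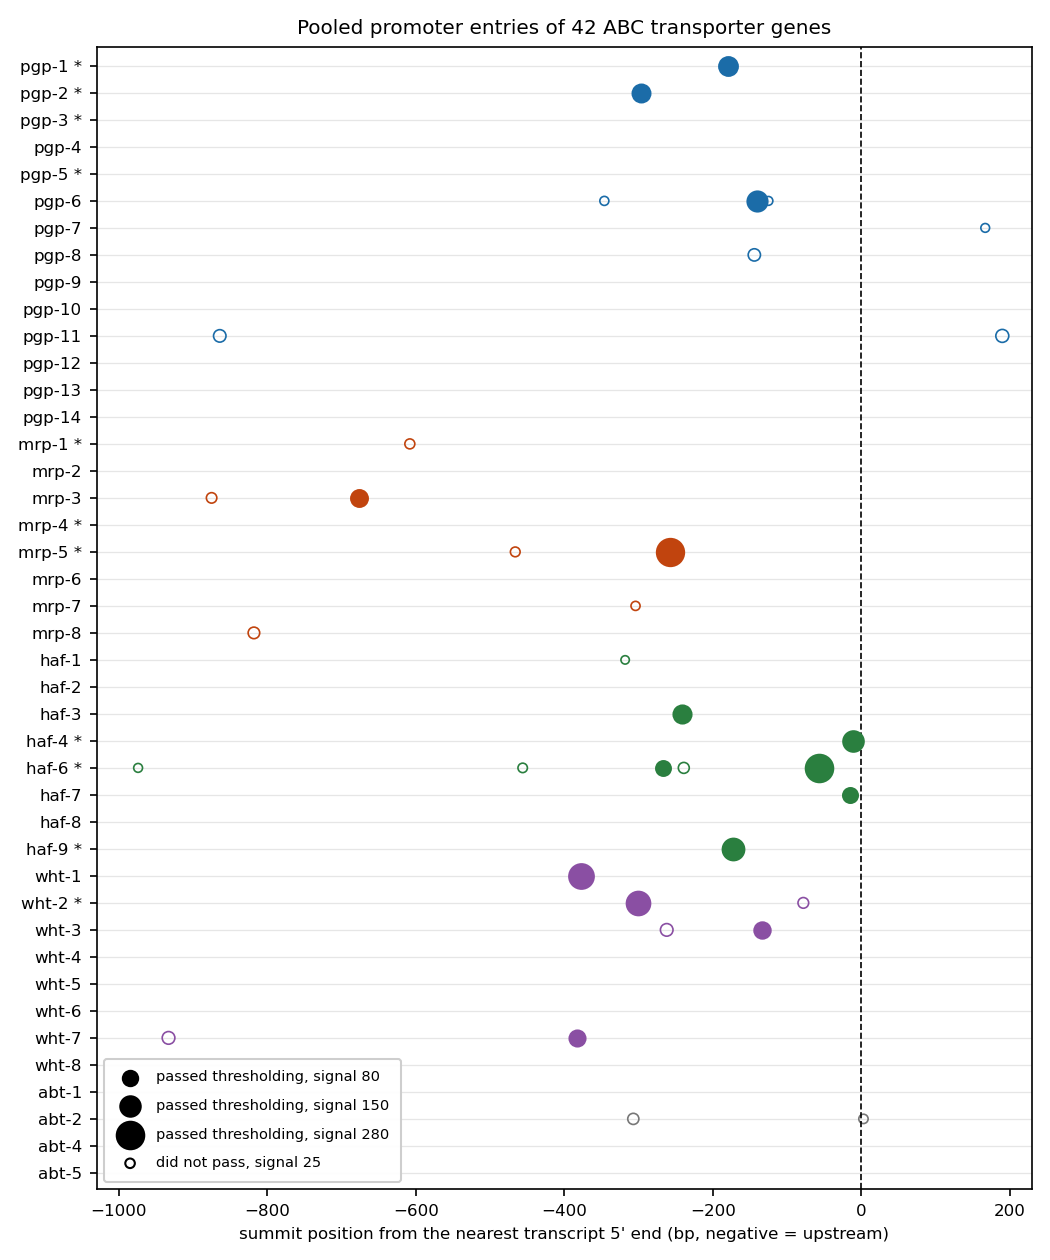
Pooled-list entries in the promoter windows of the 42 members. The horizontal axis is the summit position relative to the nearest transcript 5′ end in bp, each line is a gene, filled circles passed thresholding, open circles did not, circle area grows with signal, and an asterisk marks the gut-expressed list. The filled circles all lie upstream of the 5′ end and reach a signal of 280 at haf-6.

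Of 11 genes listed as gut-expressed from general knowledge, 7 had a promoter peak (63.6%; haf-4, haf-6, haf-9, mrp-5, pgp-1, pgp-2 and wht-2), beside 7 of the other 31 members (22.6%; haf-3, haf-7, mrp-3, pgp-6, wht-1, wht-3 and wht-7). Over all protein-coding genes the share was 13.7%. The gut-expressed list was drawn up with earlier results of these data known, and absence from it does not mean that a gene lacks gut expression. The median of the strongest promoter signal was 171 over the 7 gut-expressed genes and 98.8 over the other 7. The 4 gut-expressed genes without a promoter peak were pgp-3, pgp-5, mrp-1 and mrp-4. Of the 3 members known from the excretory cell or pharynx (pgp-4, pgp-12 and pgp-14), none had one, and 3 genes are too few for a useful bound on the share. The samples were whole embryos, so the cells in which a peak arose cannot be told apart.

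Of the 5 genes of the gut granule, all of them also in the gut-expressed list and so no separate observation, 4 had a promoter peak, beside the 13.7% of all genes. HAF-4 and HAF-9 are granule membrane proteins that work together. The haf-9 promoter peak (WBGene00001819; I, 6081381 to 6081836, plus strand gene) had its summit 173 bp upstream of the 5′ end and a signal of 171, with 89.1 in replicate 1 and 78.0 in replicate 2. The haf-4 peak (WBGene00001814; I, 489730 to 490185, plus strand gene) was centred 11 bp upstream with a signal of 152, and it was weaker in replicate 1 (65.2) than in replicate 2 (86.0). These partner genes thus ranked 883 and 1107 in the thresholded list. The wht-2 peak (WBGene00007513; IV, 11470033 to 11470201) lay 301 bp upstream, had a signal of 204 and gave 101 and 97.1 in replicates 1 and 2. It also fell in the window of the divergent neighbour C10C6.13, and between these genes it cannot be assigned. The peak of pgp-2, a P-glycoprotein needed to form gut granules (WBGene00003996; I, 5886088 to 5886543), lay 297 bp upstream with a signal of 113. By their ratio its replicates were the farthest apart of all member peaks, with 80.2 in replicate 1 and 36.7 in replicate 2. For mrp-4 (WBGene00003410), the granule gene without a peak, no list held any entry in the promoter window, and its nearest thresholded summit was 21139 bp upstream.

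Among intestinal genes of the cell surface and of haem and metal export, the strongest peak was that of mrp-5. MRP-5 exports haem from the intestine. Its peak (WBGene00003411; X, 14946443 to 14946702, intergenic) lay 258 bp upstream with a signal of 275, the rank 293 in the list, and gave 145 in replicate 1 and 132 in replicate 2. An annotated non-coding RNA gene, F45B8.9, lay 197 bp from this summit. PGP-1 sits at the apical membrane of intestinal cells, and the pgp-1 peak (WBGene00003995; IV, 12599121 to 12599576) lay 180 bp upstream with a signal of 125, 70.7 in replicate 1 and 52.6 in replicate 2. The gene pgp-3, also an intestinal P-glycoprotein gene, had weak entries, 15.9 at most in replicate 1 and 23.9 at most in replicate 2, and none in the pooled list. For mrp-1, which protects against heavy metals, the strongest pooled promoter entry was 28.2, below the thresholded range. A thresholded summit stood outside its window, 1355 bp upstream (X, 589025 to 589480), with a signal of 73.2 and replicate values of 41.3 and 34.2.

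The strongest promoter peak of the set was that of haf-6, a gene expressed in the intestine and germ line that is needed for efficient RNA interference. This peak (WBGene00001816; I, 1175753 to 1175991) lay 57 bp upstream with a signal of 280, the rank 279, and its replicate values were nearly the same at 138 and 139. A second, weaker peak lay 267 bp upstream (I, 1175848 to 1176303) with a signal of 74.5, 33.0 in replicate 1 and 42.1 in replicate 2. Both summits stood in the 663 bp between haf-6 and the divergent gene smg-2, a helicase gene of nonsense-mediated mRNA decay, and fell in the windows of both.

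The other members with a peak were 3 wht or haf genes shared or placed in an unusual way, and 4 with an intergenic peak of their own. The wht-1 peak (III, 6088034 to 6088261) was the strongest of these, 378 bp upstream with a signal of 224, 134 in replicate 1 and 90.1 in replicate 2. The pgp-6 peak (X, 10877338 to 10877793) lay 141 bp upstream with a signal of 145 and replicate values of 72.3 and 78.7. The mrp-3 peak (X, 15939772 to 15940227) was the farthest out, 676 bp upstream, with a signal of 98.8 and values of 65.8 and 31.9. The remaining intergenic peak was at the low end of the list: haf-7 (V, 14773015 to 14773470) had a signal of 75.5, 15 bp upstream, with 48.6 in replicate 1 and 28.7 in replicate 2. The haf-3 peak (V, 15766186 to 15766641; signal 115, replicates 58.5 and 51.3) lay 242 bp upstream in the 402 bp between haf-3 and the divergent F57A10.2 and counted for both. The wht-7 peak (III, 6149752 to 6150207; signal 88.6, replicates 43.2 and 37.1) had its summit in a 5′ UTR exon of the divergent Y42G9A.1. The wht-3 peak (III, 4150798 to 4151253; signal 92.6, replicates 60.2 and 34.9) lay in an intron of wht-3, 134 bp upstream of an internal 5′ end, and it was missed when the most upstream 5′ end alone was used.

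The subfamily counts depended on how peaks were assigned. Leaving out peaks that counted for several genes lowered haf from 5 to 3 and wht from 4 to 2. The stronger 2049 thresholded peaks alone also gave 2 wht genes. The share of all genes fell as well, from 13.7% to 8.05% with the former rule and to 7.11% with the latter. The mrp count ran from 1, with the window narrowed to 500 bp upstream and 100 bp downstream, to 4, with it widened to 2000 bp and 500 bp, where mrp-1 and mrp-7 entered.

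All 15 member summits were upstream of the nearest 5′ end, and 14 of them lay within 400 bp of it. Over all pairs of a gene and a promoter peak, 63.1% had the summit in that stretch. The exception was mrp-3. Members with several annotated 5′ ends offer more windows: 8 of 14 such members had a peak, beside 6 of 28 members with a single 5′ end, and over all genes these shares were 20.0% and 11.3%.

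Each of the 15 member peaks had an overlapping entry in both replicate lists, with the nearest summit within 100 bp. Because thresholding had already used replicate agreement, this is not independent evidence. In 11 of the 15 the signal was higher in replicate 1, and the log2 ratio of replicate 1 to replicate 2 ran from −0.40 (haf-4) to 1.13 (pgp-2) with a median of 0.19. Over the 4089 thresholded peaks with an entry in both lists the median was 0.20 with an SD of 0.53, so the members leaned towards replicate 1 as the list did. The strong peaks at haf-6, mrp-5 and wht-2 had log2 ratios between −0.01 and 0.14. The wht-1 peak (signal 224), stronger than that of wht-2, had a log2 ratio of 0.57. The ratios of pgp-2 and mrp-3 (1.05), both weak in replicate 2, were the highest.

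**Figure D2:**
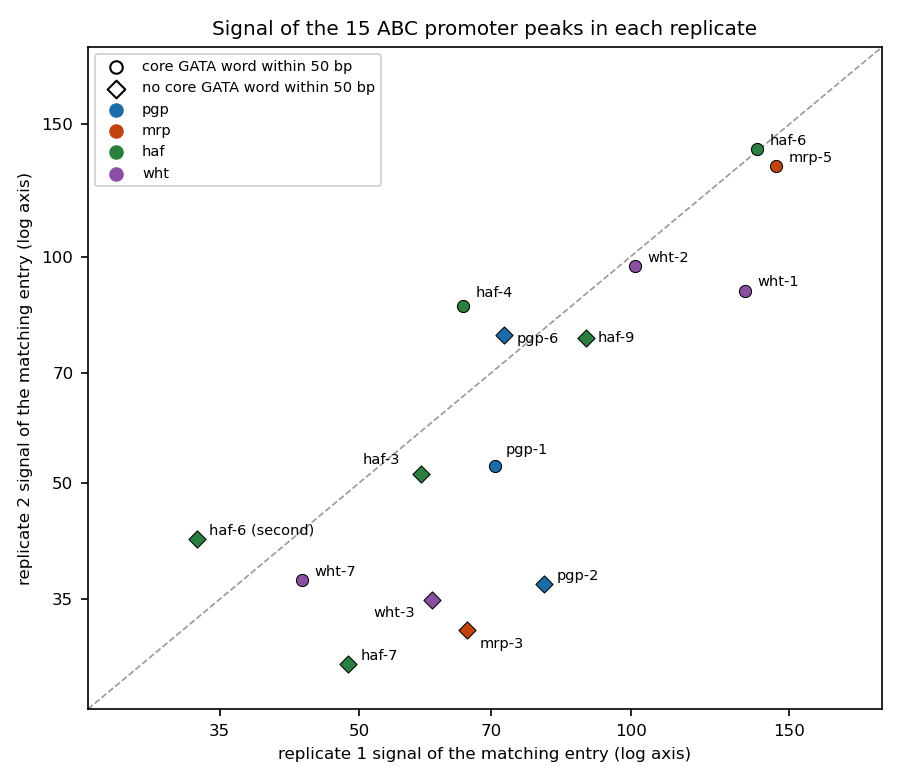
Signal of the entry that matches each of the 15 member promoter peaks in replicate 1 (horizontal) and replicate 2 (vertical), both on log axes with a dashed line of equality. Circles had TGATAA within 50 bp of the summit, diamonds did not, and colours show the subfamily. Of the 15 points, 11 lie below the line, and mrp-5 (145 and 132) and haf-6 (138 and 139) are at the upper right.

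Taking each replicate by itself, with as many of its strongest entries as the thresholded list holds, changed few members. Replicate 1 gave 15 of 42 members (35.7%), beside 13.8% of all genes, with pgp-11 added. Replicate 2 gave 14 of 42 (33.3%), beside 13.6% of all genes, with pgp-5 and pgp-9 added and haf-7 and mrp-3 lost. The gut-expressed count was 7 in replicate 1 and 8 in replicate 2, and the pgp count rose from 3 to 5 without replicate 1. pgp-9 was named after its values were seen: it had a promoter entry in replicate 2 only, with a signal of 44.6 at its strongest.

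**Figure D3:**
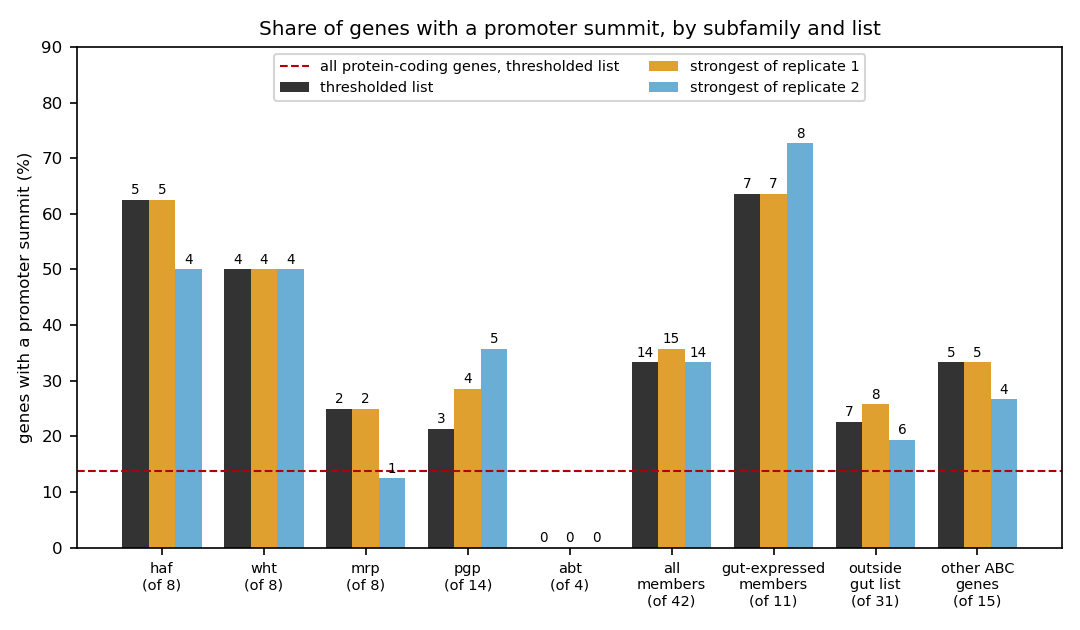
Share of genes with a promoter summit, in percent, for each subfamily, all members, the gut-expressed members, the members outside the gut list and other ABC genes. Bars show the thresholded list and the equally many strongest entries of each replicate, numbers above bars are genes, and the dashed line is the 13.7% of all protein-coding genes in the thresholded list. The bars of each group stand above the line in all 3 lists, except abt, at 0 in each, and mrp, at 12.5% in replicate 2.

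The letters TGATAA, searched on both strands, were within 50 bp of the summit in 7 of 15 member peaks (46.7%), namely those of haf-6 (its stronger peak), mrp-5, wht-1, wht-2, haf-4, pgp-1 and wht-7. The share over all 2344 promoter peaks was 38.2%, and in windows of the same length centred 500 bp to the left of nuclear promoter summits it was 9.93%. Windows of that length centred on the transcript 5′ ends of nuclear protein-coding genes held it in 10.3%. The reversed word AATAGT was at 1 of the 15 member peaks (6.67%) and at 6.36% of nuclear promoter peaks. haf-4 had 3 TGATAA words around its summit, wht-7 had 2, and the other 5 peaks had 1.

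AGATAA was within 50 bp of 6 member summits, 4 of which had no TGATAA (haf-9, pgp-6, pgp-2 and mrp-3), and of 15.7% of nuclear promoter peaks. At least 1 of 4 words (TGATAA, and the words TGATAG, then AGATAA, then AGATAG) was found at 11 of the 15 member peaks (73.3%), beside 51.2% of nuclear promoter peaks. These words can overlap and a word is a description of the sequence and not a bound site. The 4 member peaks with none of them, those of haf-3, wht-3, haf-7 and the second of haf-6, had signals of 115, 92.6, 75.5 and 74.5. Those with TGATAA ran from 88.6 (wht-7) to 280 (haf-6). The share with TGATAA rose to 73.3% when 100 bp on either side was searched. A wider search finds any word more often, and no share over all promoter peaks was at hand for that width. The pgp-2 site sat just at the 50 bp limit, with its centre 50.5 bp from the summit.

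**Figure D4:**
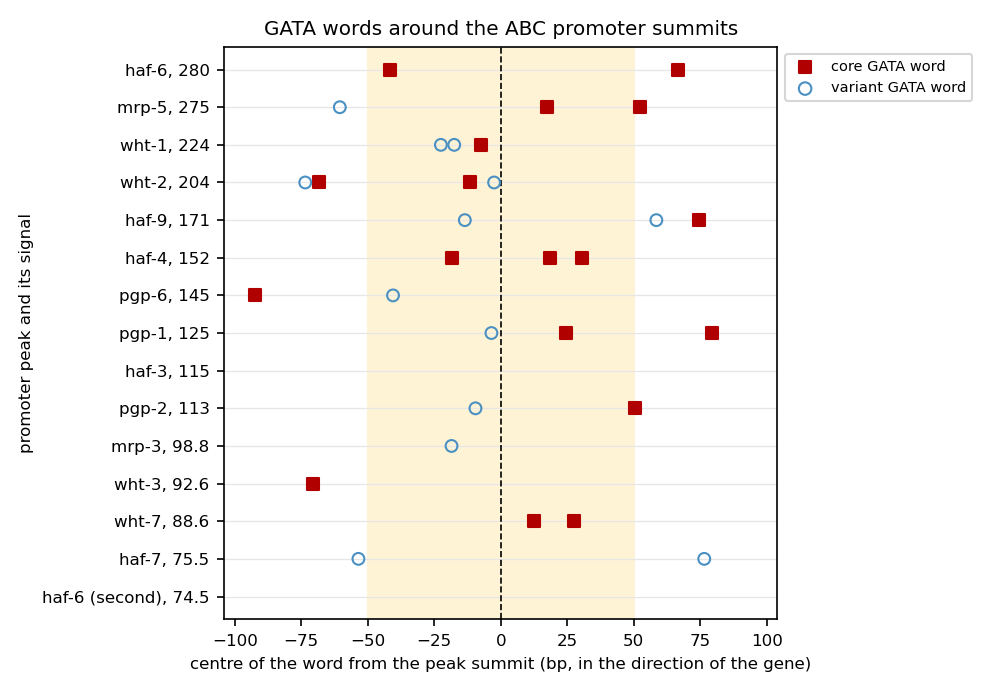
Positions of GATA words within 100 bp of the 15 member summits, ordered by signal, which stands beside each gene name. The horizontal axis is the distance of the centre of the word from the summit in bp in the direction of the gene, squares are TGATAA, circles are the other 3 of the 4 GATA words, and the band marks 50 bp on either side. haf-4 (signal 152) has 3 squares in the band, and haf-3 (115) has no mark.

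TGATAA words were common in the promoter windows of members with and without a peak. The window of the most upstream 5′ end held at least 1 in all 14 members with a peak, with a median of 2.00, in 22 of 28 members without one (78.6%, median 1.00), and in 72.0% of 19973 nuclear genes (median 1.00). Over all windows of a gene, wht-7 had 9 and pgp-6 had 7, but pgp-4 and pgp-11 had 5 each and no thresholded peak. mrp-4, with no entry in any list, had 0.

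Of the 28 members without a promoter peak, 8 had a weaker entry in the pooled list, 5 had one in a replicate list only, and 15 had none in any list. Over all protein-coding genes, 42.0% had a pooled entry of any strength in the window and 13.7% had a thresholded promoter peak. The shares of all genes with a replicate entry only, or with none, were not at hand. The nearest thresholded summit lay between 1349 and 63458 bp away, with a median of 12812 bp. The strongest of the weaker pooled entries were those of pgp-11 (54.4), pgp-8 (47.9), mrp-8 (41.4), abt-2 (37.6) and mrp-1 (28.2). Just inside the threshold stood haf-7 (75.5) and the second haf-6 peak (74.5), so that no strongest member entry fell between 54.4 and 74.5. The pgp-11 entry had 38.5 in replicate 1, 189 bp downstream of the 5′ end, while the strongest entry of replicate 2 (30.0) was 868 bp upstream. abt-2 was the only abt gene with pooled entries, and in the window its strongest single-library value was 29.3 in replicate 1, with no entry in replicate 2.

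A pair of members had a thresholded summit just beyond the window. The mrp-7 summit (V, 19673266 to 19673721) lay 1349 bp upstream with a signal of 105 and replicate values of 47.0 and 56.6, above several peaks inside windows. The mrp-1 summit lay 355 bp beyond its window and had 1 TGATAA word within 50 bp. Among the members of the excretory cell and pharynx, pgp-12 had the nearest summit, 1586 bp upstream in an intron of the nuclear receptor gene nhr-27, with a signal of 73.6. The 5′ ends of pgp-12 and pgp-14 lie within nhr-27, and the nearest summit of pgp-14, 10336 bp upstream with a signal of 97.3, was in an nhr-27 intron too. The nearest summit of pgp-4 was 18123 bp upstream.

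The strongest thresholded summit at any member was not in a promoter window. It lay in an intron of haf-9 (I, 6082714 to 6082955), 1024 bp downstream of the nearest 5′ end, with a signal of 380 and the rank 85. Replicate 1 gave 209 and replicate 2 gave 168. This exceeded the haf-9 promoter peak (171), and no TGATAA lay within 50 bp of it. The summit fell on the annotated non-coding RNA gene ZK484.10 and 35 bp from the small nucleolar RNA gene ZK484.9, so a link to haf-9 itself cannot be told apart from one to those genes.

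The genes pgp-6, pgp-7, pgp-8 and pgp-5 lie in a row on chromosome X in the same direction, and only pgp-6, the most upstream, had a thresholded promoter peak. pgp-7, named after its values were seen as a gene of this row, had a pooled entry of 19.5, 167 bp downstream of its 5′ end, and pgp-8 one of 47.9, 144 bp upstream. pgp-5, an intestinal gene whose 5′ end is 3 bp from the end of pgp-8, had entries in both replicates, 33.7 at 420 bp upstream and 37.8 at 285 bp upstream. Both of these fall within pgp-8, and the pooled list had no promoter entry for pgp-5. Among all entries, of 3869 entries among the 5000 strongest of replicate 1 that overlapped one of the 5000 strongest of replicate 2, 53 (1.37%) had no overlapping pooled entry.

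**Figure D5:**
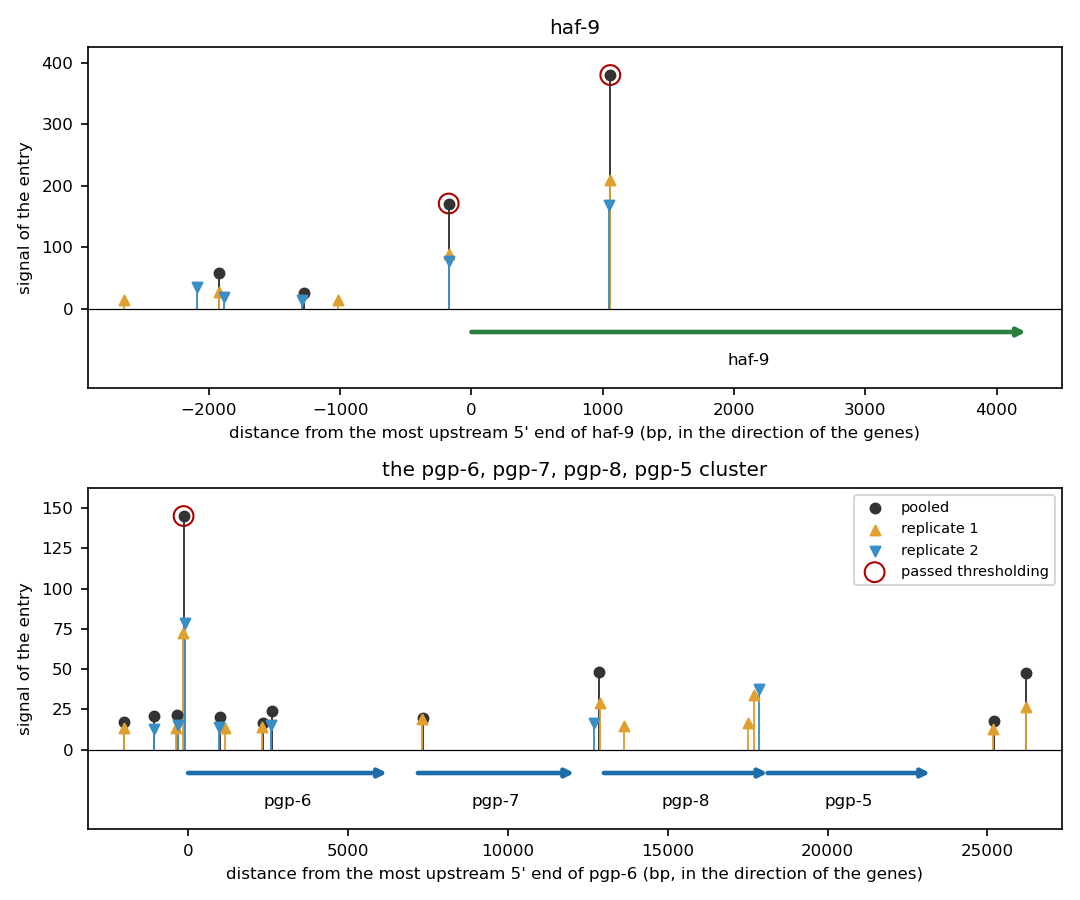
Peak-list entries around haf-9 (upper panel) and across the pgp-6, pgp-7, pgp-8 and pgp-5 genes (lower panel). The horizontal axes give distance in bp from the most upstream 5′ end of haf-9 or pgp-6 in the direction of the genes, the vertical axes give the signal of each entry in the pooled list and each replicate, circled points passed thresholding, and arrows are genes. The haf-9 intron entry (380) stands above its promoter entry (171), and pgp-6 (145) has the only circled entry of its panel.

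Other ABC genes are those whose names do not start with the 5 prefixes. Promoter peaks were at 5 of 15 of them (33.3%), the same share as the members, beside 13.7% of all protein-coding genes. The strongest was at pmp-4, a gene of the peroxisomal ABC class, with a signal of 184 at 695 bp upstream, 108 in replicate 1, 75.6 in replicate 2 and 2 TGATAA words. pmp-2, of the same class, had 98.9 in its own 5′ UTR exon, 58 bp downstream of the 5′ end. The peaks of abcf-2 (112), abtm-1 (81.1) and abcf-3 (78.4) also counted for other genes, T27E9.2 and ant-1.1 in the case of abcf-2 and 1 gene each in the others, and abcf proteins lack membrane-spanning parts and act with ribosomes. The median of the strongest signal was 98.9 over these 5 genes, beside 135 over the 14 members.

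As a description, promoter peaks were counted at marker genes, and the share over all protein-coding genes was 13.7%. The marker lists were chosen with earlier results of these data known, so these counts are no check of the labelled factor. Of 7 intestinal markers, 5 had one (act-5, cpr-6, elt-7, ifb-2 and lys-8), and elt-2 and ges-1 did not. Of the markers of other tissues, deb-1 (1 of 3 for body wall muscle), nhr-25 (1 of 3 for epidermis) and rab-3 (1 of 2 for neurons) had one, while 0 of 2 had one for each of pharynx, excretory cell and germ line. The part of tissues other than the intestine in the member peaks was not tested.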

How the data were processed

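ELT-2 ChIP-seq peak lists of 2 biological replicates were used, in coordinates of ce11, which is the WBcel235 assembly. The authors deposited a list per replicate (25770 and 25986 entries), a pooled list (30000) and a thresholded list (4098) made from these by the irreproducible discovery rate procedure, per the deposited file listing. Which aligner, peak caller, versions and threshold were used is not stated in the material at hand. The signal of each entry is the deposited value, never negative, and was used to describe and rank entries within a list. Lists in ce10 coordinates were not used here, as no annotation of that build was at hand. Read depth is unknown, so no interval for counting error was given for signals.

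From these, summits were placed in promoter windows (1000 bp upstream to 200 bp downstream of any transcript 5′ end, Ensembl release 115). A replicate value is that of the overlapping entry (at least 1 bp) with the nearest summit, and ranks follow signal. GATA words were searched on both strands in the 101 bases around each summit. Coordinates are 1-based. Scripts ran in Python 3.11.15 with pandas 2.3.3, numpy 2.4.6, scipy 1.17.1 and matplotlib 3.10.9. The placing of summits in windows was checked on planted summits, and the word search on a short made-up sequence. Other steps were not checked on planted data. No test was run, since there is 1 group of 2 libraries. The samples share a label of biological replicate, with nothing more on their origin. Other windows, assignments, thresholds, words and single replicates were tried.

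The members and gene lists were chosen with earlier results of these data known. Genes named were members with a promoter peak, members of the gut-expressed, granule, excretory cell and pharynx lists, the 5 peakless members with the strongest pooled promoter entry, members with a thresholded summit up to 500 bp beyond the window, other ABC genes with a promoter peak, and neighbours sharing a member peak. Outside this rule, pgp-7 and pgp-9, and the genes that lie beside or share peaks with other named genes, were named after their values were seen.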

Additional observations from a re-analysis of the deposited data

How the results depend on the processing

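With other windows, assignments, thresholds and single replicates the number of ABC genes with a promoter peak ran from 10 to 17, beside 14, and stayed above the share of all genes under each of them. The lowest counts came from the stronger 2049 peaks and from peaks of 1 gene only. Each gave 10 members (23.8%), beside 7.11% and 8.05% of all genes. The gut-expressed count ran from 5 to 8, beside 7, and the abt count was 0 throughout. The mrp count of 2 became 1 with the window narrowed to 500 bp upstream and 100 bp downstream and with the stronger peaks, and 4 with the window widened to 2000 bp and 500 bp, or with summits given to the closest 5′ end. The wht count of 4 became 2 with the stronger peaks and with peaks of 1 gene only, and the haf count of 5 became 3 with peaks of 1 gene only. Leaving out a replicate gave 14 to 15 for all members, 4 to 5 for pgp, 1 to 2 for mrp, 4 to 5 for haf and 7 to 8 for the gut-expressed genes. It gave 4 for wht each time, and the share of all genes was 13.6% to 13.8%. The share of member peaks with TGATAA was 46.7% (95% exact binomial interval 21.3 to 73.4). This interval treats the 15 peaks as independent draws, though the 2 haf-6 peaks overlap, and it does not measure spread between replicates. The share ran from 26.7% for TGATAAG to 73.3% within 100 bp. It was 60.0% among the stronger peaks and 43.8% to 53.3% with a replicate left out. No share over all promoter peaks was at hand for these other settings. The control word AATAGT gave 6.67%. No paired analysis was possible because the libraries form a single group. The subfamilies are small, so that 1 gene moves a share of 8 genes by 12.5 percentage points, and the unknown depth limits what the absence of an entry means.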
